A study of Mus musculus with 20 samples.

Results

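The loss of Zdhhc9 was compared between 2 white matter tracts of the mouse by asking, gene by gene, whether knockout and wild type differed by the same amount in corpus callosum as in optic nerve. The comparison used all 20 libraries of the series: 6 knockout and 5 wild-type libraries of corpus callosum, the fibre bundle that joins the cerebral hemispheres, and 5 knockout and 4 wild-type libraries of optic nerve, which carries the axons of the retina. Of the 46517 genes in the table, 16440 had enough counts in the 4 groups to be tested. For each of them the value of interest was the knockout effect in callosum minus the knockout effect in nerve, both as log2 fold changes of knockout against wild type. A value below 0 means that the knockout level, relative to wild type, was lower in callosum than in nerve. The sample labels give the genotype as Zdhhc9 knockout, whereas the submitters' design text speaks of a knockdown. Age, sex, strain and the altered allele are not stated in the labels, nor is whether one library came from 1 mouse or from several. The callosum was cut from frozen brain sections, and the nerves were frozen whole.

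Zdhhc9 lies on the X chromosome and codes for an enzyme of the DHHC family, which attaches the fatty acid palmitate to cysteines of proteins and so anchors them in membranes. It works with the partner protein encoded by Golga7, and Ras proteins are among its known substrates. Both tracts are rich in oligodendrocytes, which wrap axons in myelin, a stack of membranes that needs a large supply of cholesterol and other lipids. The callosum lies inside the brain below cortex and beside striatum, while the nerve is a separate cord with a sheath of connective tissue and no neuronal cell bodies of its own.

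Total estimated counts ran from 15401130 to 26095622 per library, and 0 pairs of libraries were identical. Oligodendrocyte markers were high in every library, with a mean log2 CPM (counts scaled to a common library total) of the mature list between 7.29 and 8.51 in callosum and between 8.90 and 9.26 in nerve. Markers of meningeal and nerve fibroblasts, at 0.89 to 2.23 in callosum and 7.28 to 8.23 in nerve, separated the tracts in all libraries. Some libraries stood apart from their group. In KO_ON_719856 the damage-associated microglia list was at 7.23, against 5.95 to 6.20 in the other knockout nerves. General neuron markers ranged widely in callosum, from 6.00 to 8.07. Striatal markers were at 7.23 and 6.71 in the knockout callosum libraries with 2-digit numbers (27 and 29), against 5.93 to 6.84 in the other knockouts, and at 5.56 and 5.12 in the wild-type ones (28 and 30), against 6.09 to 6.31 in the other wild types. Among nerves, neuron markers were highest in WT_ON_717652 (4.87), KO_ON_717651 (4.93) and KO_ON_719856 (4.99). RNA came from whole tissue, so that fewer cells of a type and less RNA per cell cannot be told apart in any value below. The p-values measure the spread between these libraries.

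Zdhhc9 (ENSMUSG00000036985.11, mm10 chromosome X, 48171969 to 48208878) fell by a similar amount in both tracts. In callosum its level, in CPM scaled with TMM factors, was 192, 186, 186, 201 and 153 in wild type and between 40.8 and 56 in knockout, with a median of 48.2. Nerve libraries held 135, 145, 115 and 150 CPM in wild type and 51.4, 35.4, 47.7, 35.1 and 43 CPM in knockout. Knockout and wild-type libraries did not overlap in either tract. The log2 fold change was -1.94 (SE 0.11, adjusted p = 4.3e-09) in callosum and -1.68 (SE 0.12, adjusted p = 3.2e-07) in nerve. The difference between the tracts was -0.26 (SE 0.17, 95% interval -0.60 to 0.088, adjusted p = 0.764), which did not pass the test.

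Apln was the other gene that fell in both tracts by edgeR's test of each tract within the fit of all libraries. It codes for apelin, a secreted peptide ligand of a G protein-coupled receptor, and lies 137 kb from Zdhhc9 on the X chromosome (48025146 to 48034853). In nerve its level was 70.7, 67.8, 57.8 and 77.3 CPM in wild type and 30.8, 31, 33.1, 37.7 and 37.2 CPM in knockout. In callosum it was 48, 49.3, 33.5, 39.3 and 39 CPM in wild type and 18.4 to 26.7 CPM in knockout, with a median of 24.1. The groups did not overlap in either tract, and the wild-type level was higher in nerve. The log2 fold change was -1.01 in nerve (SE 0.12, adjusted p = 6.2e-04) and -0.83 in callosum (SE 0.11, adjusted p = 0.0016), with a difference between tracts of 0.19 (SE 0.17, 95% interval -0.16 to 0.53, adjusted p = 0.837). The callosum call of Apln ended without the 2-digit callosum libraries. Of the other 14 tested genes within 1000 kb of Zdhhc9, none passed in either tract. Of those 14, 3 had an unadjusted p under 0.05 for the difference by edgeR's test (0.037 to 0.043), where 6.83% of all genes did. Adjusted p was 0.725 for each. They were Ocrl, which codes for an inositol phosphatase, at 0.41, Slc25a14, a mitochondrial carrier gene, at 0.55, and Rab33a, a small GTPase gene, at -0.41.

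Further genes were separated by genotype in both tracts. Without overlap between genotypes, knockout was lower in callosum for 109 genes (0.663% of those tested) and in nerve for 147 (0.894%), and higher for 32 (0.195%) and 181 (1.1%). Both held for 6 genes (0.0365%): Zdhhc9, Apln, Pmp22, Smtnl2, Slc45a3 and Hsd17b12. No gene was higher in knockout without overlap in both tracts, and no gene was separated in opposite directions. Pmp22, which codes for a tetraspan membrane protein of myelinating cells, stood at 273, 274, 239 and 251 CPM in wild-type nerve and at 222, 204, 211, 202 and 221 CPM in knockout nerve. In callosum it stood at 63.8, 61.1, 35.1, 51.4 and 44.4 CPM in wild type and at 20.1 to 35.1 CPM in knockout, with a median of 25.9. The separation was narrow in callosum, where the lowest wild-type and the highest knockout value both round to 35.1. Its log2 fold change was -0.94 in callosum (adjusted p = 0.0037) and -0.29 in nerve (adjusted p = 0.985). Slc45a3, a membrane transporter gene expressed by oligodendrocytes, was 27.4, 29.4, 25.4 and 31.5 CPM in wild-type nerve and 21.5, 19.1, 20.4, 23.8 and 21.8 CPM in knockout nerve. Callosum libraries held 10.8, 11.5, 8.2, 10.9 and 9.63 CPM in wild type and 4.5 to 6.75 CPM in knockout, with a median of 5.51. Its log2 fold change was -0.86 in callosum (adjusted p = 8.3e-04) and -0.42 in nerve (adjusted p = 0.878), and that of Smtnl2, a smoothelin-like gene, -1.37 (adjusted p = 0.0022) and -0.56 (adjusted p = 0.985). Hsd17b12, whose enzyme takes part in the elongation of very long fatty acids, had -0.27 and -0.19 and passed in neither tract.

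**Figure D1:**
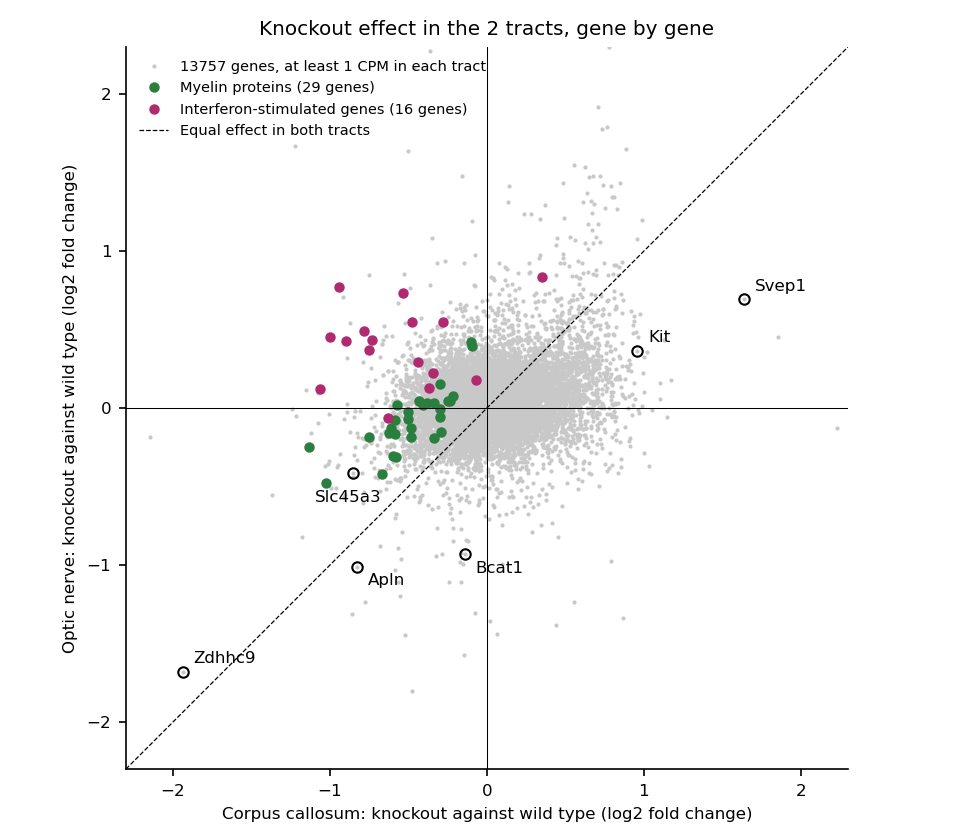
Knockout effect in corpus callosum (x axis) and in optic nerve (y axis), both as log2 fold change of knockout against wild type, for the 13757 genes with a mean of at least 1 CPM in each tract (grey), the 29 myelin protein genes (green) and the 16 interferon-stimulated genes (magenta). Genes on the dashed line have equal effects; Zdhhc9 and Apln lie near it, myelin genes lie left of it close to 0 in nerve, and most interferon-stimulated genes lie above 0 in nerve and below 0 in callosum. Open circles mark named genes, and single genes beyond 2.3 on either axis are not drawn.

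No gene passed the test of the difference between tracts. At a Benjamini-Hochberg adjusted p under 0.05, edgeR called 0 of 16440 genes (0%), with a smallest adjusted p of 0.623, and DESeq2 also called 0, with 1179 at an unadjusted p under 0.05. In edgeR, at an unadjusted p under 0.05 there were 1123 genes (6.83%), of which 733 (4.46%) had a difference below 0 and 390 (2.37%) above. Over all genes 54% of differences lay below 0 and 46% above, the median was -0.028, and the middle 50% ran from -0.21 to 0.16. At the median gene the 95% interval reached 0.47 to either side of the difference, and for 80.6% of genes it reached less than 1. These intervals are not adjusted for the number of genes, and differences beyond 1 whose interval excluded 0 also did not pass.

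Each tract taken alone passed few genes in the same fit. In callosum 41 genes (0.249%) passed, 4 higher (0.0243%) and 37 lower (0.225%), while 2388 (14.5%) had an unadjusted p under 0.05. In nerve 3 genes (0.0182%) passed, all lower, namely Zdhhc9, Apln and Bcat1, and 656 (3.99%) had an unadjusted p under 0.05. With 1 library left out the callosum count ran from 8 (without WT_CCg_28 or WT_CCg_717652) to 553 (without KO_CCg_29). Called with each of the 20 libraries left out in turn were 8 of the 41: Zdhhc9, Apln, Svep1, Kit, Pmp22, Slc45a3, Slco3a1 and Smtnl2. Of these Zdhhc9 was called in all 35 alternatives that give a callosum effect, and without the 2-digit callosum libraries only Zdhhc9 and Svep1 of the 41 were. Whether a gene passed in one tract and not in the other is no test of their difference. Across genes the effects in the 2 tracts had a Pearson r of 0.24 and a Spearman rho of 0.19 over 13757 genes, which share libraries and are not independent replicates, and 54.2% of all tested genes had the same sign in both. The 40 genes that passed in callosum besides Zdhhc9 had the same sign in nerve in 34 cases (85%): 30 of the 36 lower genes were negative there and 4 of the 4 higher genes positive. Their median log2 fold change was -0.73 in callosum and -0.12 in nerve. These 40 were chosen on their callosum values, so a smaller value in the other tract is no evidence of a difference.

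Bcat1 and Svep1 were among the 10 genes with the smallest unadjusted p on the side above 0. Bcat1 (chromosome 6, 144993835 to 145076184), the cytosolic enzyme that starts the breakdown of branched-chain amino acids, passed the test in nerve, where it fell, and not in callosum. Its level in nerve was 91.7, 60.9, 62.1 and 60.3 CPM in wild type and 37.5, 29.2, 35.4, 43.5 and 34.8 CPM in knockout. In callosum it was 63.3, 61.2, 54.7, 44.7 and 51.1 CPM in wild type and 40.9 to 59.6 CPM in knockout, with a median of 50.6. The nerve groups did not overlap and the callosum groups did. The log2 fold change was -0.93 in nerve (SE 0.14, adjusted p = 0.0133) and -0.14 in callosum (SE 0.13, adjusted p = 0.641), and the difference was 0.79 (SE 0.19, 95% interval 0.39 to 1.19, unadjusted p = 5.5e-04, adjusted p = 0.725). The call in nerve ended without KO_ON_693452, KO_ON_719856, WT_ON_700858 or the longer-number callosum libraries, and with the tracts fitted apart, and the difference was 0.62 without WT_ON_700858, the library with the highest level.

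Svep1 (chromosome 4, 58042442 to 58206859), a gene for an extracellular matrix protein with many domains, was higher in knockout callosum than in any wild-type callosum. There it was 3.29, 2.51, 2.73, 3.01 and 2.48 CPM in wild type and 7.36 to 10.4 CPM in knockout, with a median of 8.36. In nerve it was 11.1, 13.6, 10.7 and 8.44 CPM in wild type and 25.7, 18, 12.9, 16.9 and 15.2 CPM in knockout. In nerve 4 of 5 knockout libraries lay above every wild-type library. The log2 fold change was 1.64 in callosum (adjusted p = 5.2e-05) and 0.69 in nerve (adjusted p = 0.636), and the difference was 0.95 (SE 0.24, 95% interval 0.45 to 1.44, unadjusted p = 7.7e-04, adjusted p = 0.725). Kit, the receptor for stem cell factor, had the same order of effects. It rose in callosum with a log2 fold change of 0.96 (adjusted p = 0.0019) and stood at 0.37 in nerve, where knockout libraries at 58.3, 43.2, 39.3, 39.4 and 47 CPM overlapped wild-type libraries at 40.9, 36.3, 36.3 and 27.5 CPM. The difference of 0.59 had a 95% interval of 0.185 to 1.003 and an adjusted p of 0.725.

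The other 8 genes named on that side include several that neurons express. Camk4, a calcium-dependent kinase, had a difference of 1.29 (SE 0.35), Rgs7bp, which anchors regulators of G protein signalling at the membrane, 1.12 (SE 0.29), and Foxp1, a forkhead transcription factor, 0.96 (SE 0.25). Tubb3, the neuronal beta-tubulin, had 0.69 (SE 0.19), with all knockout nerves below all wild-type nerves. Arl15, a small GTPase gene, had 0.79, Pcdhb16, a protocadherin gene, 0.76, Fnbp1l, which links membrane curvature to actin, 0.71, and Gtdc1 0.50. Adjusted p was 0.725 for each of these 8, and in callosum the log2 fold changes ran from 0.22 for Tubb3 to 1.002 for Camk4 and in nerve from -0.46 for Tubb3 to -0.13 for Pcdhb16. General neuron markers also stood higher in knockout than in wild-type callosum (mean log2 CPM of 7.53 ± 0.72 (SD, n = 6) against 6.94 ± 0.67 (SD, n = 5)). They stood higher in knockout nerve too (4.51 ± 0.44 (SD, n = 5) against 4.03 ± 0.62 (SD, n = 4)), where the 8 genes had negative values. The part of these cells in the 8 values was not tested.

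Csf1 was among the 10 genes with the smallest unadjusted p on the side below 0. This gene (chromosome 3, 107741048 to 107760469) codes for the growth factor that microglia need to survive. In callosum it was 83.2, 81, 70.2, 87.3 and 70.3 CPM in wild type and 45.1 to 65.3 CPM in knockout, with a median of 53.2. Wild-type nerves held 174, 181, 156 and 187 CPM and knockout nerves 195, 185, 194, 167 and 176 CPM. The callosum groups did not overlap, whereas the nerve groups had nearly the same range. The log2 fold change was -0.52 in callosum (adjusted p = 0.0287) and 0.071 in nerve (adjusted p = 0.985), and the difference was -0.59 (SE 0.15, 95% interval -0.90 to -0.28, unadjusted p = 7.0e-04, adjusted p = 0.725). The call of Csf1 in callosum ended without KO_CCg_27, KO_CCg_693451, KO_CCg_719856, WT_CCg_28, WT_CCg_30 or WT_CCg_717652, without either set of callosum numbers, with the neuron level as a term and with the tracts fitted apart.

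**Figure D2:**
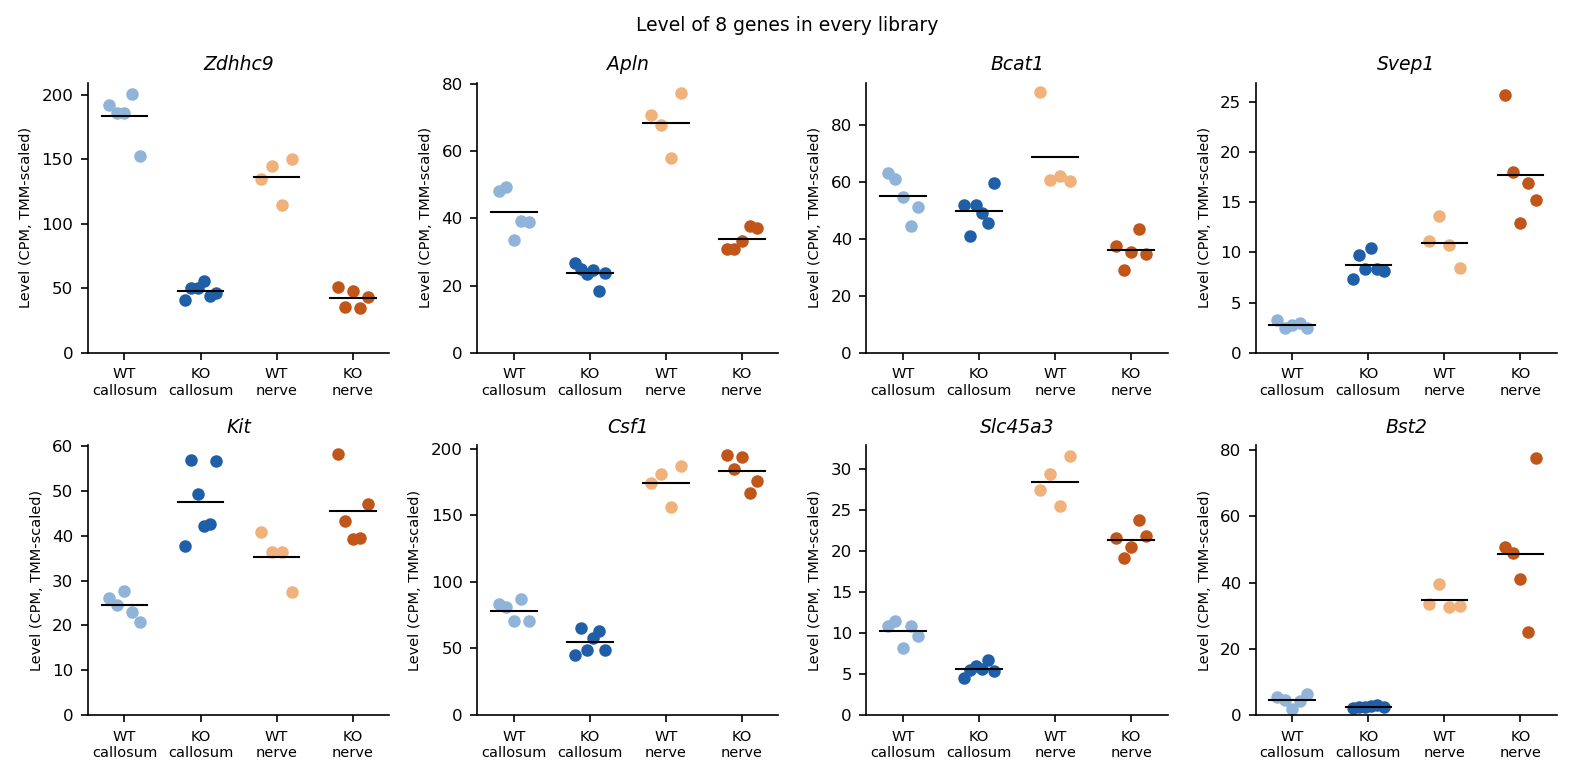
Level of 8 genes in every library, in CPM scaled with TMM factors, on linear axes that start at 0; each point is 1 library and each bar the mean of 5 wild-type callosum, 6 knockout callosum, 4 wild-type nerve or 5 knockout nerve libraries. Zdhhc9, Apln and Slc45a3 separate by genotype in both tracts, Bcat1 only in nerve, and Svep1, Kit and Csf1 only in callosum; Bst2 overlaps in both.

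The other 9 genes named below 0 had differences between -1.63 and -0.46, each with an adjusted p of 0.725. Bmp2, a secreted ligand that restrains oligodendrocyte differentiation, was at -0.81 in callosum (adjusted p = 0.0172) and -0.019 in nerve, a difference of -0.79 (SE 0.20). Fgd3, an exchange factor gene for the GTPase Cdc42, was at -0.73 (adjusted p = 0.0172) and 0.011, and Mafk, a small Maf transcription factor gene, at -0.60 (adjusted p = 0.0353) and 0.046. Nudt13, which codes for a nudix hydrolase, was at -0.37 (adjusted p = 0.0421) and 0.086. With 1 library left out, Bmp2 was called in callosum in 16 of 20 cases, Fgd3 in 15, Mafk in 10 and Nudt13 in 4. Lcat, whose enzyme esterifies cholesterol in lipoproteins, had a difference of -0.58, Cenpb, a centromere protein gene, -0.70, Fam129b -0.73 and Fam102a -0.46. Isg20, an interferon-induced exonuclease gene, had the largest of these values, -1.63 (SE 0.43), from -0.92 in callosum and 0.71 in nerve. Slco3a1, an organic anion transporter gene that passed in callosum at -0.80 (adjusted p = 0.0016), stood at -0.19 in nerve.

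Ifi27l2a, an interferon-induced gene, had the smallest p of all 16440 genes and is named here because of it, after its values were seen, since its mean of 0.688 CPM in callosum lies below the minimum of 1 CPM set for named genes. In callosum it was 1.37, 0.872, 0.634, 1.16 and 1.49 CPM in wild type and 0.204 to 0.452 CPM in knockout, with a median of 0.332. In nerve it was far higher, at 21.6, 28.5, 18.5 and 21.3 CPM in wild type and 28.4, 26.3, 27.7, 13 and 28.2 CPM in knockout. All knockout callosum libraries lay below all wild-type ones, and the nerve groups overlapped. The log2 fold change was -1.67 in callosum (adjusted p = 0.0172) and 0.14 in nerve, and the difference was -1.81 (SE 0.36, 95% interval -2.56 to -1.05, unadjusted p = 7.6e-05, adjusted p = 0.623). Its callosum call held in 15 of 20 cases with 1 library left out. The difference passed without KO_ON_717651, the knockout nerve with the lowest level (adjusted p = 0.0356). It also passed with the tracts fitted apart (adjusted p = 0.0075). That last p set the difference against a normal distribution and did not come from edgeR's test in the fit of all libraries. It is not comparable with the 0.623 of that test.

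Interferon-stimulated genes had the largest gap between tracts of all lists described. Interferons are secreted alarm signals that switch on a shared set of antiviral genes through the transcription factors encoded by genes of the Stat and Irf families. The difference was below 0 for 16 of 16 genes, where 54% of all tested genes lay below 0, with a median of -1.07 against -0.028 over all genes. In callosum 15 of 16 were negative (median -0.58), against 50.5% of all genes, and in nerve 1 of 16 (median 0.43), against 42.7%. At an unadjusted p under 0.05 there were 12 of 16 below 0, where 4.46% of all genes were, and 0 passed after adjustment. In each tract alone, 1 of 16 passed in callosum, where 0.249% of all genes did, and 0 in nerve, where 0.0182% did. The gene was Ifi27 at -0.63 (adjusted p = 0.0172, called in 15 of 20 cases with 1 library left out). The median list difference lay between -1.22 and -0.69 over all 36 alternatives.

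Short promoter stretches of 4 of these genes are shown because all 4 hold copies of the core of the element that interferon-activated factors bind, taken here as 2 copies of GAAA with any 2 bases between them and searched on both strands. The RefSeq sequences (GRCm38.p6) cover 250 bases upstream of the start, read in the direction of the gene, with capitals for each match or run of overlapping matches. A match on the other strand reads as 2 copies of TTTC.
Ifit3 (chr19:34583279-34583528, plus strand): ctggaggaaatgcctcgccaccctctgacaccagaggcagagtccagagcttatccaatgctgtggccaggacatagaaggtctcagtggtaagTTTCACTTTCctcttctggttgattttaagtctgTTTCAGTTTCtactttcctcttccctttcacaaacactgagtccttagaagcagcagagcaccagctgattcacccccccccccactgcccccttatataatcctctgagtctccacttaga
Isg15 (chr4:156200819-156201068, minus strand): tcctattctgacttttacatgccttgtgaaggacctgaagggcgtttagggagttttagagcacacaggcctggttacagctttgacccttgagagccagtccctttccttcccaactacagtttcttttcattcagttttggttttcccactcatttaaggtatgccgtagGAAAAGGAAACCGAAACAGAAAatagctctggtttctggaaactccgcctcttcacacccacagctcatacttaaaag
Oas1a (chr5:120907526-120907775, minus strand): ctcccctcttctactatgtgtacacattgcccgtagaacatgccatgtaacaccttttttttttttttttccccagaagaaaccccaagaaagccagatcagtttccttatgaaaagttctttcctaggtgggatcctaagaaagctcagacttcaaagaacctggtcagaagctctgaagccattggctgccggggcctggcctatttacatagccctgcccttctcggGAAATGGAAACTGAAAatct
Bst2 (chr8:71537473-71537722, minus strand): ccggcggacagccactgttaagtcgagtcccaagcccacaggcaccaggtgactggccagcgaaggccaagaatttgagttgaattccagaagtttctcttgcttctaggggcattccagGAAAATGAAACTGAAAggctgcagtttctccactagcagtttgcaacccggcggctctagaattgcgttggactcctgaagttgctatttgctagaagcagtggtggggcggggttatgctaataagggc
A match was found in 7 of the 12 list members with a window in the table (58.3%), against 936 of 27025 genes (3.46%), and in 1 of 9 antigen presentation genes (11.1%), 1 of 21 myelin genes (4.76%) and 0 of 12 reactive astrocyte genes. Matches overlap one another in Isg15, Oas1a and Bst2. A match describes the letters only.

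Bst2, which codes for a membrane protein that tethers virus particles to cells, was 33.6, 39.6, 32.6 and 33 CPM in wild-type nerve and 50.7, 48.9, 41.1, 25.1 and 77.7 CPM in knockout nerve. In callosum it was 5.48, 4.41, 1.78, 4.13 and 6.24 CPM in wild type and 2.15 to 3.04 CPM in knockout, with a median of 2.47. In callosum the groups overlapped because WT_CCg_685232 lay below all knockout libraries, and in nerve because KO_ON_717651 lay below all wild-type libraries. The difference was -1.27 (SE 0.38, 95% interval -2.06 to -0.49, adjusted p = 0.725). Ifit3, an antiviral RNA-binding protein gene, was at -0.75 in callosum and 0.37 in nerve, Oas1a, a sensor of double-stranded RNA, at -1.002 and 0.45, Oasl2 at -0.74 and 0.43, and Isg15, a ubiquitin-like modifier gene, at -0.28 and 0.55. Irf7, a master transcription factor of the response, was at -0.53 and 0.74, a difference of -1.27 (SE 0.43). The smallest difference in the list was -0.25 for Stat2, and Mx1 was positive in both tracts (0.35 and 0.83).

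The mean level of the 16 genes by library shows the levels behind this difference. In callosum it was 2.86, 2.85, 1.81, 2.38 and 2.97 log2 CPM in wild type and 1.96 to 2.24 in knockout. In nerve it was 4.90, 5.28, 4.78 and 4.58 in wild type and 5.04, 5.32, 5.26, 4.82 and 5.85 in knockout. Of the wild-type callosum libraries 4 of 5 lay above all knockout ones and WT_CCg_685232 lay below them, and KO_ON_719856 was the highest nerve. Without KO_ON_719856 the nerve median was 0.21 and the list difference -0.86, with 16 of 16 still below 0. Without WT_CCg_685232 the difference was -1.22.

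Antigen presentation genes followed the same order. These genes load protein fragments onto class I and class II molecules, which show them to T cells. The difference was below 0 for 12 of 12 genes (median -0.82), where 54% of all genes were, 8 of 12 had an unadjusted p under 0.05, where 4.46% of all genes did so below 0, and 0 passed after adjustment. In callosum 11 of 12 were negative (median -0.53), against 50.5% of all genes, and in nerve 1 of 12 (median 0.26), against 42.7%. The class I genes H2-D1 and H2-K1 were at -0.57 and -0.52 in callosum and 0.29 and 0.28 in nerve, with differences of -0.87 (SE 0.26) and -0.79 (SE 0.25). H2-K1 stood at 41.9, 45.8, 26.6, 41.3 and 49.2 CPM in wild-type and 24.7 to 35.4 CPM in knockout callosum, and at 191, 208, 212 and 185 CPM in wild-type and 267, 231, 211, 152 and 344 CPM in knockout nerve. Both tracts showed overlap. Psmb9, an inducible proteasome subunit gene, had -1.09 (SE 0.32), Tap2, a subunit of the peptide transporter, -0.64 (SE 0.21), and the most abundant member, B2m, the light chain of class I, -0.35 (SE 0.22). Without KO_ON_719856 the list difference was -0.61.

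Genes of microglia, the resident macrophages of brain and nerve, differed in the same direction, and the medians moved by over 1.5 times without KO_ON_719856. Of 15 genes of damage-associated microglia 14 had a difference below 0 (median -0.52), with 14 negative in callosum (median -0.25) and 15 of 15 positive in nerve (median 0.14). Over all genes 54% of differences lay below 0, and 50.5% of effects were negative in callosum and 42.7% in nerve. With an unadjusted p under 0.05 there were 4 of 15, where 4.46% of all genes did so below 0. They include Ccl6, a chemokine gene, at -0.71, Lyz2, the macrophage lysozyme, at -0.64, and Csf1. Without KO_ON_719856 the nerve median was -0.051 and the median difference -0.24. Apoe, a lipid carrier that was the most abundant member, was 4451, 5630, 5080 and 5103 CPM in wild-type nerve and 6348, 5751, 4669, 4770 and 11317 CPM in knockout nerve. The last value is that of KO_ON_719856, and the difference of Apoe went from -0.52 with all libraries to -0.24 without it. Of 17 markers of homeostatic microglia 14 had a difference below 0 (median -0.37), 7 of them with an unadjusted p under 0.05, among them the complement genes C1qa at -0.65 and C1qc at -0.59, the integrin gene Itgam at -0.40 and the Csf1 receptor gene Csf1r at -0.34. In callosum 17 of 17 were negative (median -0.33), in nerve 6 of 17 (median 0.025), and without KO_ON_719856 the median difference was -0.22. Aif1, a calcium-binding protein gene of microglia, was at -0.41. Without KO_ON_719856 the differences were -0.17 for Aif1, -0.365 for C1qa, -0.35 for C1qc, -0.43 for Lyz2 and -0.47 for Ccl6.

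Reactive astrocyte genes had a difference below 0 in 12 of 12 cases (median -0.56), where 54% of all genes did. An unadjusted p under 0.05 was found for 3 of 12, where 4.46% of all genes had one below 0. The median was -0.33 in callosum and 0.19 in nerve. KO_ON_719856 had the highest summed level of the list, 13360 CPM against 7953 to 10840 in the other knockout nerves, and without it the nerve median was 0.070 and the median difference -0.47. Gfap, the intermediate filament gene of astrocytes, was at -0.57 in callosum and 0.043 in nerve, a difference of -0.61 (SE 0.22). Vim and Nes, also filament genes, had -0.66 (SE 0.31) and -0.56 (SE 0.27), and S100a6, a calcium-binding protein gene, -0.77 (SE 0.32), which was -0.46 without that library. Homeostatic astrocyte markers had a median difference of -0.13, with 10 of 15 below 0, against 54% of all genes.

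**Figure D3:**
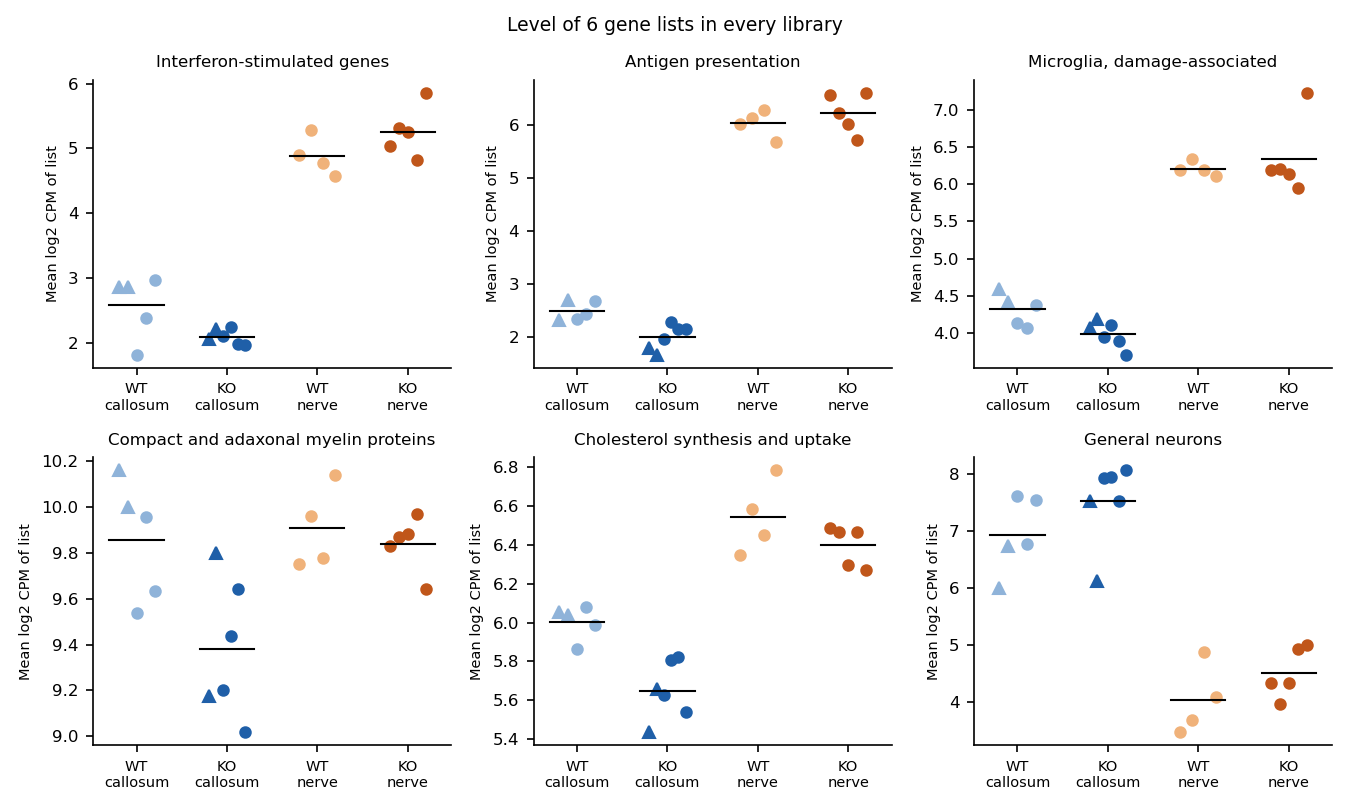
Mean level of 6 gene lists in every library, as mean log2 CPM over the genes of the list; points are libraries, triangles are callosum libraries with 2-digit numbers and bars are group means. Interferon, antigen presentation and damage-associated microglia lists are lower on average in knockout callosum; in nerve the knockout mean of the microglia list is above wild type with KO_ON_719856 at 7.23, while the other 4 knockouts lie between 5.95 and 6.20; myelin and cholesterol lists are lower in knockout callosum with overlap for myelin, and the neuron list varies within every group.

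Myelin protein genes were below 0 in callosum and near 0 in nerve. All 29 had a negative log2 fold change in callosum (median -0.48), against 18 of 29 in nerve (median -0.068), and 29 of 29 had a difference below 0 (median -0.42, range -0.89 to -0.14). Over all genes 50.5% were negative in callosum and 42.7% in nerve, and 54% of differences lay below 0. With an unadjusted p under 0.05 there were 6, where 4.46% of all genes did so below 0, and after adjustment 0. In callosum 1 of 29 passed, where 0.249% of all genes did, and in nerve 0, where 0.0182% did. The gene was Hapln2, a matrix protein gene of the node of Ranvier, at -1.14 in callosum (adjusted p = 0.0172). Hapln2 stood at 268, 225, 131, 222 and 157 CPM in wild-type and 58.7 to 129 CPM in knockout callosum, and at 426, 462, 383 and 492 CPM in wild-type and 416, 364, 432, 355 and 286 CPM in knockout nerve. The callosum groups did not overlap, by a narrow margin, and the nerve groups did. Its difference of -0.89 (SE 0.29) had an adjusted p of 0.725. The callosum call of Hapln2 ended without KO_CCg_27, KO_CCg_693451, WT_CCg_28, WT_CCg_30 or WT_CCg_717652, without either set of callosum numbers and with the tracts fitted apart.

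Mbp, a main protein of compact myelin and the most abundant gene of the list, ranged from 19651 to 31827 CPM in wild-type and from 12119 to 23861 CPM in knockout callosum, and from 32452 to 39077 and 25769 to 36139 CPM in nerve. Groups overlapped in both tracts. Its log2 fold change was -0.61 in callosum and -0.13 in nerve, a difference of -0.49 (SE 0.25, 95% interval -1.01 to 0.037). Mobp, a basic protein of compact myelin, had -0.56 (SE 0.28), Mag, the adhesion protein of the inner wrap, -0.43 (SE 0.22), Cnp -0.37 (SE 0.21) and Mog, on the outer surface, -0.30 (SE 0.22). Plekhb1 had -0.51 (SE 0.22) and Opalin, a membrane glycoprotein gene, -0.52 (SE 0.21), from -0.10 in callosum and 0.42 in nerve. With the neuron marker level as a term in the fit, the callosum median of the list was -0.30 and the nerve median 0.064, and the median difference was -0.40.

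Along the oligodendrocyte lineage the median gap was smallest at the precursor stage, an order that holds for the medians and not for every count below. Mature markers had a median difference of -0.37, from -0.53 in callosum and -0.14 in nerve. The difference was below 0 for 22 of 22, where 54% of all genes lay below 0. For 7 of 22 the unadjusted p was under 0.05, where 4.46% of all genes did so below 0. In callosum 5 of 22 passed (Hapln2, Pmp22, Trf, Apod and S100b), where 0.249% of all genes did. In nerve 0 passed, though 4 of 22 had knockout nerves below all wild-type nerves, where 0.894% of all genes did. For 1 of 22 knockout nerves lay above all wild-type nerves, where 1.1% of all genes did. Trf, the iron carrier gene, was at -0.73 (adjusted p = 0.0199) and -0.21, and Apod, a lipid carrier gene, at -0.83 (adjusted p = 0.0369) and -0.16. With 1 library left out, Pmp22 was called in 20 of 20 cases, Hapln2 in 15, Trf in 14, Apod in 10 and S100b in 2. Ndrg1, a gene of mature myelinating cells, was at -0.57 and 0.033. Ptgds, a prostaglandin synthase gene, was positive in both tracts (0.13 and 0.27).

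Markers of newly formed oligodendrocytes had a median difference of -0.33 (16 of 16 below 0, against 54% of all genes), with -0.21 in callosum and 0.099 in nerve. In nerve 4 of 16 were negative, against 42.7% of all genes. For 3 of 16 the unadjusted p of the difference was under 0.05 by edgeR's test, where 4.46% of all genes did so below 0. Bcas1 had -0.62 (SE 0.25), Kif19a, a kinesin gene, -0.76 (SE 0.27), Tmem163, a zinc transporter gene, -0.61 (SE 0.23), Itpr2, a calcium channel gene of the endoplasmic reticulum, -0.33 (SE 0.17), Sirt2, a deacetylase gene, -0.40 (SE 0.21) and Gpr17 -0.33 (SE 0.27). Precursor markers had a median difference of -0.12, with 12 of 15 below 0, against 54% of all genes. Of the 15, 4 had an unadjusted p under 0.05 (Matn4, Olig1, Cspg4 and Gpr37l1), where 4.46% of all genes did so below 0. Pdgfra, through which platelet-derived growth factor acts on precursors, was at -0.25 in callosum and -0.18 in nerve, a difference of -0.070 (SE 0.14, 95% interval -0.35 to 0.21). Lineage transcription factors had a median of -0.13 (14 of 20 below 0, against 54% of all genes), and that median changed sign under 1 alternative. Named below 0 were Nkx6-2 at -0.60, Sox10 at -0.51, Olig1 at -0.49, Sox8 at -0.46 and Myrf, which drives myelin genes, at -0.46 (SE 0.23). The other 6 of 20 lay above 0, up to 0.30. Differences between these stages were not tested.

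Both lipid synthesis lists had a median below 0 in callosum. In nerve the median was below 0 for the cholesterol list and near 0 for the other. In the cholesterol synthesis and uptake list, 24 of 25 genes had a value below 0 in callosum (median -0.41), against 50.5% of all genes, and 21 of 25 in nerve (median -0.14), against 42.7%. The difference was below 0 for 21 of 25 (median -0.23), against 54% of all genes. For 3 the unadjusted p was under 0.05, where 4.46% of all genes did so below 0. In callosum 3 of 25 passed, where 0.249% of all genes did, and in nerve 0. Among the 3 were Msmo1 and Hmgcs1, which were called in 6 and 8 of 20 cases with 1 library left out. Knockout callosum libraries lay below all wild-type libraries for 9 of 25, where 0.663% of all genes did, and knockout nerves for 1, where 0.894% did. Hmgcs1, an early enzyme of the pathway, was at -0.52 (adjusted p = 0.0482) and -0.32, a difference of -0.20 (SE 0.16), and Dhcr7, a last-step enzyme, at -0.48 and -0.11, a difference of -0.37 (SE 0.17). Insig1, which holds the sterol sensor back, had -0.48 (SE 0.18), the sensor partner gene Scap -0.27 (SE 0.14) and Srebf2, the transcription factor of the pathway, -0.19 (SE 0.14). Genes of fatty acid, sphingolipid and galactolipid synthesis had a median difference of -0.19, with 23 of 28 below 0, against 54% of all genes. Their median was -0.24 in callosum (25 of 28 below 0, against 50.5% of all genes) and -0.065 in nerve (19 of 28, against 42.7%). Scd1, a desaturase gene, was at -0.56 (SE 0.25), Fasn, fatty acid synthase, at -0.39 (SE 0.17), Fa2h at -0.42 (SE 0.22), Scd2 at -0.22 (SE 0.23) and Sptlc1 at -0.26 (SE 0.13).

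DHHC enzymes and their partners had a median effect near 0 in both tracts (0.0070 in callosum and -0.020 in nerve). The median difference over 31 tested genes was -0.014, with 18 of 31 below 0, near the 54% of all genes. Zdhhc9 was the only one of the 31 to pass in callosum or in nerve. Golga7, the partner of Zdhhc9, was at -0.45 in callosum and -0.24 in nerve (adjusted p = 0.201 and 0.985), a difference of -0.22 (SE 0.23, 95% interval -0.69 to 0.26). Zdhhc20 was at -0.41 and -0.40 and Zdhhc4 at -0.16 and 0.072. Zdhhc13 had 0.53 (SE 0.16, unadjusted p = 0.0036, adjusted p = 0.725), from 0.29 in callosum and -0.24 in nerve, and Zdhhc2 0.50 (SE 0.25). Zdhhc11, Zdhhc19 and Zdhhc25 had too few counts to be tested.

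Neuron markers were higher on average in the knockout of both tracts, with a wide spread. General neuron markers were positive in 18 of 18 cases in callosum (median 0.62) and 14 of 18 in nerve (median 0.34), and 4 of 18 differences lay below 0 (median 0.29). Over all genes 50.5% were below 0 in callosum, 42.7% in nerve and 54% in the difference. Snap25, a synaptic vesicle fusion gene, was 189, 384, 729, 329 and 647 CPM in wild-type callosum and 191 to 1069 CPM in knockout. The nerve levels were 16.6, 18.8, 46.8 and 27.7 CPM in wild type and 30.8, 27.2, 43.3, 54.3 and 71.9 CPM in knockout, and genotypes overlapped in both tracts. Its difference was -0.067 (SE 0.60), Map2, of dendrites, had 0.63 (SE 0.31) and Syn1, of synaptic vesicles, 0.52 (SE 0.47). Without WT_ON_717652, the wild-type nerve with the highest neuron level, the median of general neuron markers was -0.045. Striatal markers had a difference above 0 in 10 of 12 cases, where 46% of all genes did, and below 0 in 2, down to -1.03. For 3 of 12 the unadjusted p by edgeR's test was under 0.05 above 0, where 2.37% of all genes had one. Tac1, a neuropeptide gene, was at 1.003 (SE 0.37) and Adora2a, an adenosine receptor gene, at 0.82 (SE 0.37). Rgs9 had 0.81 (SE 0.40), Ppp1r1b 0.66 (SE 0.30) and Adcy5 0.17 (SE 0.21). The median difference of the striatal list was 0.59. That median was 0.095 without the 2-digit callosum libraries and 1.51 without those of longer numbers.

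**Figure D4:**
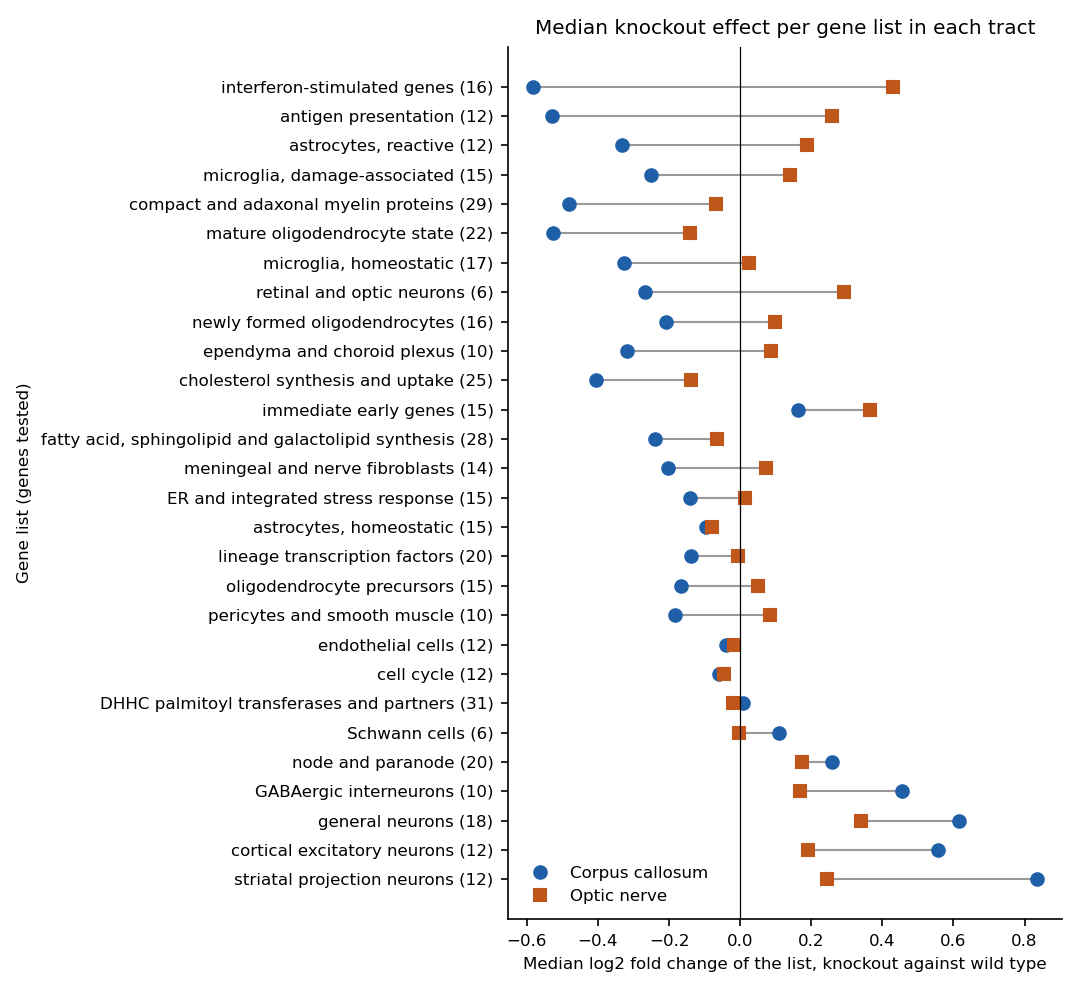
Median knockout effect of each of 28 gene lists in corpus callosum (circles) and optic nerve (squares), as log2 fold change of knockout against wild type, with the number of genes tested in brackets; lists are ordered by their median difference. Interferon-stimulated genes have the widest gap (-0.58 and 0.43). Cell cycle (-0.060 and -0.047), homeostatic astrocyte (-0.096 and -0.080), endothelial and DHHC lists have almost none. The general, striatal, cortical and GABAergic neuron lists are higher in callosum, while the retinal and optic neuron list is lower there (-0.27 and 0.29).

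The remaining lists cover vascular, connective and other neighbouring cell types, and general responses. Endothelial, Schwann cell and cell cycle lists had median differences of -0.055, 0.048 and -0.046. Meningeal and nerve fibroblast markers had -0.16 (10 of 14 below 0, against 54% of all genes), pericyte and smooth muscle markers -0.12 and ependyma and choroid plexus markers -0.27. Stress response genes of the endoplasmic reticulum had -0.15, and immediate early genes, which follow cell activity, had -0.22, from 0.16 in callosum and 0.37 in nerve. No gene of any of the 28 lists passed the test of the difference.

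**Figure D5:**
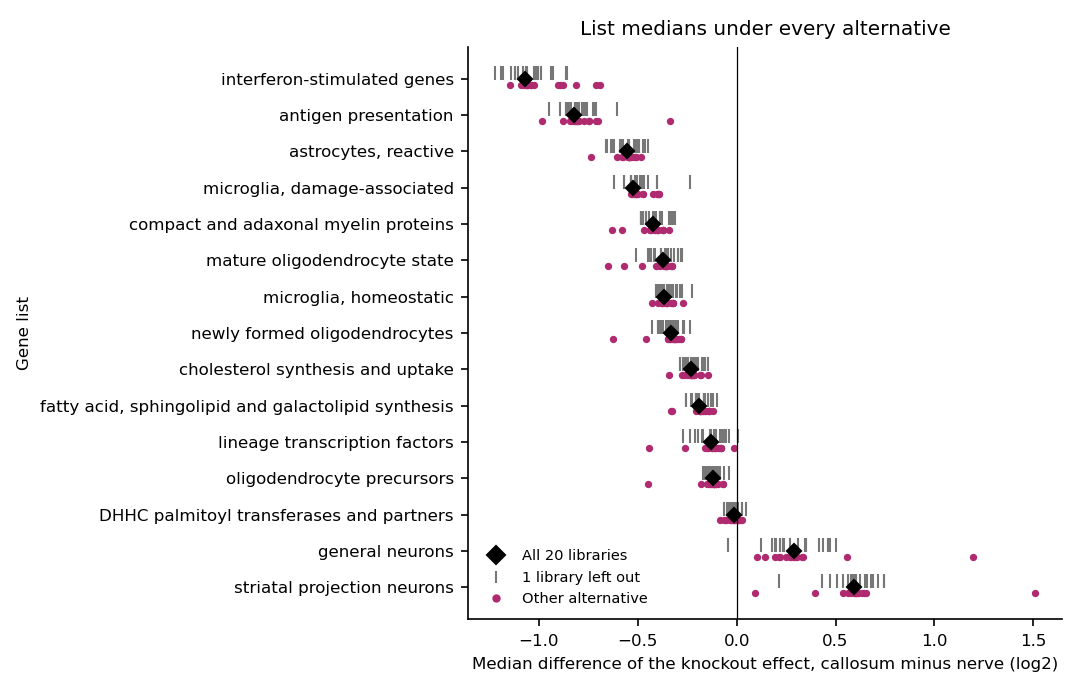
Median difference of the knockout effect (callosum minus nerve, log2) for 15 gene lists with all 20 libraries (diamonds), with each library left out in turn (grey ticks) and under the other alternatives (magenta dots). The interferon list lies between -1.22 and -0.69 and every myelin value below 0. The general neuron and lineage transcription factor lists each cross 0 once, and DHHC enzymes lie on both sides of 0.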

How the data were processed

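RNA was sequenced in 20 libraries prepared with a stranded mRNA kit, per the labels' protocols. The authors deposited an expected count (an estimated count of reads per gene, not scaled to a common total) for each library, on mm10 per the submitters' processing notes; the sources used here do not give the version of the quantifier. Symbols and positions came from GENCODE M21, matched by gene ID for 46005 of 46517 genes.

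Estimated counts were rounded, kept where filterByExpr passed them (minimum count 10, minimum total 15) and scaled by TMM. All 20 libraries in 4 tissue and genotype groups were fitted with edgeR 4.0.16 (quasi-likelihood test, R 4.3.3; common biological coefficient of variation 23.1%), with contrasts for the difference of differences and for each tract. P-values were Benjamini-Hochberg adjusted over 16440 genes, at a threshold of 0.05. Each SE is the log2 fold change over the root of F. Levels by list are mean log2 CPM with a prior count of 2. The members and lists were chosen with earlier results of these data known, and several lists share genes.

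Named genes were Zdhhc9, the 10 smallest p on each side of the difference and up to 10 genes called in each tract (at least 1 CPM in each tract), 4 members by p and 2 by level of each of 15 lists, and a fixed set of glial and neuronal markers. Unnamed predicted genes, pseudogenes and sex-linked Xist and Y genes were left out of the names. Ifi27l2a and neighbours of Zdhhc9 were added. Alternatives used DESeq2 1.42.0, limma 3.58.1, sva 3.50.0, other filters and factors, and left-out libraries. The code was tested on simulated data. Some genes that the rule names are not reported here.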

Additional observations from a re-analysis of the deposited data

Results flagged for a closer look

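In 28 of 424 sets of libraries examined (the named genes in each of the 4 groups), 1 library lay far from the others of its group, with a gap to its nearest neighbour that took up most of the range of the group; about 1 in 20 would do so by chance. The gaps below are given as a share of that range.

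KO_ON_719856 accounted for 7. It had the highest level of its group for Apoe (11317 CPM, next 6348, gap 0.747), C1qa (306, next 160, gap 0.772), C1qc (219, next 130, gap 0.722), Ctsd (1386, next 798, gap 0.79), Itgam (66.7, next 54.1, gap 0.712) and Slc12a5 (101, next 18.4, gap 0.851), and the lowest for Mbp (25769, next 33543, gap 0.75). The group's median level of damage-associated microglia genes moved with this library, as given with that list.

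KO_ON_717651 was lowest for Apod (gap 0.736) and Ifi27l2a (13 CPM, next 26.3, gap 0.864) and highest for Map2 (134, next 88.8, gap 0.888) and Scd2 (gap 0.794). WT_ON_717652 was lowest for Bcas1 (gap 0.837), Fgd3 (gap 0.863) and Matn4 (gap 0.965) and highest for the neuronal chloride transporter gene Slc12a5 (22.2 CPM, next 4.79, gap 0.857). WT_ON_700858 was highest for Bcat1 (91.7 CPM, next 62.1, gap 0.943) and Nes (gap 0.889) and lowest for Psmb9 (gap 0.963). WT_CCg_685232 was lowest for Ifi27 (43.6 CPM, next 63, gap 0.951), Mafk (gap 0.831) and S100a6 (gap 0.871).

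The other 7 were Bst2 in WT_ON_701297 (highest, gap 0.857), Fasn in KO_ON_693452 (lowest, gap 0.776), Sox8 in KO_ON_48118A4 (lowest, gap 0.762), H2-K1 in KO_CCg_717651 (highest, gap 0.626), Ifi27 and Itgam in KO_CCg_27 (lowest, gaps 0.632 and 0.672) and Psmb9 in KO_CCg_693452 (highest, gap 0.642).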

How the results depend on the processing

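For the difference between tracts, 1 gene, Ifi27l2a, was called with the tracts fitted apart (p from a normal distribution) and without KO_ON_717651. The count of genes whose effect differed was 1 under these alternatives and 0 under the other 34 of 36. With single libraries left out it ran from 0 to 1, the callosum count from 8 to 553 and the nerve count from 2 to 4; the extremes in callosum were without WT_CCg_28 or WT_CCg_717652 (8), WT_CCg_685232 (492) and KO_CCg_29 (553), and it was 9 without KO_CCg_27 or KO_CCg_693451, 11 without KO_CCg_719856, 12 without WT_CCg_30, 107 without KO_CCg_717651, and 22 to 27 without KO_ON_48038A7, KO_ON_48118A4, KO_ON_693452, KO_ON_717651 or WT_ON_701297. Against 41 in callosum, there were 70 with upper-quartile factors, 25 with no filter, 284 by DESeq2, 3686 by limma-voom with sample weights, 15 with group weights, 6 with tracts fitted apart, 2 without 2-digit libraries, 121 with the number format and 10 with the neuron level as a term, and 19 without the libraries of longer numbers, chosen after seeing the data. The split of higher against lower was 4 to 37 with edgeR and 89 to 195 by DESeq2, and turned to 2104 to 1582 with sample weights and 13 to 6 without the longer numbers. Against 3 in nerve, DESeq2 gave 10 and sample weights 5. The causes were not tested.

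In 4 cases a number occurs in both tracts (KO_CCg_693452 and KO_ON_693452 among them), and the labels do not say that it marks 1 mouse; deviations of same-numbered libraries correlated between -0.24 and 0.20 across genes, and 1 of the 4 callosum libraries correlated best with its own number. With the replicate block by limma-voom (consensus correlation -0.11) the counts were 0, 21 and 3. With the block over the 8 libraries that share numbers the difference count was 0, with a smallest adjusted p of 0.0566.

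Named genes kept the sign of their difference under most alternatives. The block over shared numbers has 1 wild-type library in each tract, WT_CCg_717652 and WT_ON_717652. There the sign turned for Adora2a (-0.012), Apln (-0.15), B2m (0.021), Ptgds (0.31), Slc12a5 (0.71) and Snap25 (1.17). These changes of sign thus depend on single wild-type libraries. The sign of Adcy5 turned without 2-digit libraries (-0.038). Snap25 was 0.43 with sample weights. With 1 library left out, values ran from -0.11 to 0.0036 for Pdgfra, -0.35 to 0.043 for Ptgds, -2.55 to 0.096 for Slc12a5, -0.46 to 0.17 for Snap25 and -0.19 to 0.20 for Zdhhc20. Zdhhc20, near 0, was also 0.0058 with DESeq2 size factors, 0.037 with no filter or the stricter filter, 0.0056 by DESeq2, 0.031 with group weights, 0.046 with the replicate block by limma-voom, 0.12 without 2-digit libraries, 0.063 with the format and 0.042 with the neuron level as a term, 0.14 with 1 surrogate variable and 0.0057 without longer numbers.

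The number of libraries limits what could be seen: the median 95% interval reached 0.47 to either side of a difference.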
